A study of Mus musculus with 4 samples.

Results

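The NMDA receptor subunits were followed through single-nucleus RNA of the mouse hippocampus after repeated social defeat (RSD). The members were chosen by gene name, not by any measured value, and are 6 of the 56748 genes counted: Grin1, Grin2a, Grin2b, Grin2c, Grin2d and Grin3a. RSD exposes caged males to an unfamiliar CD-1 aggressor, here in 6 nightly sessions of 2 h, with unexposed mice as controls, and hippocampal nuclei were taken 14 h after the last session. All mice of the diet experiment were C57BL/6 males aged 5 to 7 weeks at purchase, fed either vehicle chow or chow with PLX5622, a CSF1R antagonist that depletes microglia, for 7 days before RSD, which gave the groups Control-Vehicle, Stress-Vehicle, Control-PLX5622 and Stress-PLX5622. In the paper's fear conditioning experiment, mice stayed on these diets through RSD and until the end of the study. The genotype experiment used the lines IL-1R1+/+ (without Cre) and Vglut2+/IL-1R1-/- (with Cre, here nIL-1R1-/-), bred in house and without PLX5622, with 1 control pool (prefix Con-) and 1 stress pool (prefix Stress-) of each line. The ages of these lines were not given in the sources used here, and the deletion reaches cells in which the Vglut2 driver has been active. Each group was 1 pool of hippocampi from 3 mice, so differences between single mice were not measured, and no group had a second pool. The p-values for RSD measure how the stress difference varied between pairs of pools that differ in diet or genotype. Those for diet and genotype rest on the same spread, and those for classes on the spread of class differences between pools.

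The NMDA receptor is a tetrameric glutamate-gated cation channel that passes calcium and opens only when its pore is freed of magnesium by depolarization. Every functional receptor contains the obligatory GluN1 subunit, encoded by Grin1, which binds the co-agonist glycine or D-serine. GluN2 subunits (Grin2a to Grin2d) bind glutamate and set how fast the channel closes and how strongly magnesium blocks it, and GluN3A (Grin3a) lowers calcium entry. In forebrain neurons GluN2B is the prevailing GluN2 subunit early in life and GluN2A gains ground as synapses mature, so the ratio of Grin2a to Grin2b is a common summary of receptor makeup. In the hippocampus these receptors are required for long-term potentiation at many excitatory synapses.

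The 6 genes lie on separate chromosomes and all on the minus strand of GRCm39. They differ widely in length, which bears on nuclear RNA because unspliced transcripts are counted. Grin2b spans chr6:135690231-136150548 (460 kb), Grin2a chr16:9385762-9813424 (428 kb) and Grin3a chr4:49661611-49845847 (184 kb). The short members are Grin2d at chr7:45481304-45527802 (46.5 kb), Grin1 at chr2:25181186-25209226 (28 kb) and Grin2c at chr11:115139992-115158525 (18.5 kb). Over all nuclei Grin2a gave 756321 UMIs, Grin2b 447319, Grin1 101210, Grin3a 16823, Grin2d 4389 and Grin2c 945, a UMI being a molecule tag counted once. Grin2d is overlapped by Kdelr1 on the other strand, and the largest count of a gene overlapping it was 2187 UMIs, so Grin2d values are uncertain where the counting did not separate the strands, which the sources used here do not state.

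After 516 nuclei with more than 20% mitochondrial UMIs were left out, 56834 nuclei and 217534771 UMIs remained. Median depth ran from 598 UMIs per nucleus in Control-PLX5622 to 5012 in Con-nIL-1R1-/-. Stress and control pools had medians of 1325.5 and 2563 in the vehicle pair and 2580 and 5012 in the nIL-1R1-/- pair, against 628 and 598 in the PLX5622 pair and 3218.5 and 3098.5 in the IL-1R1+/+ pair. No barcode was shared between pools. Nuclei were clustered without the 6 members and 50 pathway genes, and 34.8% of nuclei (27.3 to 49.2% by pool) stayed unnamed. All 7 DG markers, 4 of 6 CA1 markers and 7 of 8 CA2/3 markers were highest in their own class, as were all markers of the deep-layer excitatory-like, astrocyte-like, oligodendrocyte precursor (OPC)-like and oligodendrocyte-like classes. The inhibitory (INH)-like nuclei comprised an Lhx6 cluster, a Vip/Adarb2 cluster and a cluster led by Egfr that also carried Hapln1 among its leading genes. In the Lhx6 cluster 4 of 6 of its markers were highest, and in the Vip/Adarb2 cluster 6 of 6. The Hapln1/Egfr cluster was scored on a general inhibitory list, of which 3 of 5 markers (Gad1, Gad2 and Erbb4) were highest in it. Microglia-like nuclei numbered 166, with 0 in each PLX5622 pool, and a further cluster of 975 nuclei led by Inpp5d, Csf1r and Runx1 stayed unnamed, with 15 in Control-PLX5622, 17 in Stress-PLX5622 and 140 to 174 in the others. At Leiden resolution 0.5 the microglia-like class held 1118 nuclei, with 13 and 9 in those PLX5622 pools. Il1r1, the targeted gene, was at 60.97 and 30.2 CPM in DG-like nuclei of the IL-1R1+/+ pools and at 11.3 and 8.46 in the nIL-1R1-/- pools (log2 fold change -2.19 ± 0.22 SE, edgeR adjusted p = 3.5e-05).

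Grin1 RNA was highest in CA1-like neurons, at 587 ± 135 CPM (UMIs of the gene per 1000000 UMIs of the class in that pool, mean ± SD, n = 8 pools). DG-like neurons held 530.5 ± 98.9 CPM and CA2/3-like neurons 532 ± 111. CA1-like exceeded DG-like in 8 of 8 pools, by 0.14 ± 0.07 (SD) on the log2(CPM + 1) scale (exact sign-flip permutation test over pools, two-sided, p = 0.0078, the smallest it can give, adjusted p = 0.0264 over 54 neighbouring pairs of classes, of which 20 were called). DG-like and CA2/3-like did not differ beyond their spread (difference 0.0018 ± 0.063, exact p = 0.92). Deep-layer excitatory-like neurons came next, above the Lhx6 INH-like cluster in 8 of 8 pools (log2 difference 0.16 ± 0.08, exact p = 0.0078, adjusted 0.0264). The INH-like clusters followed at 435 (Lhx6), 428 (Hapln1/Egfr) and 389 CPM (Vip/Adarb2), then OPC-like at 312 ± 95.6 and astrocyte-like nuclei at 285 ± 80.6. Oligodendrocyte-like nuclei had 124 ± 69.2 CPM, below astrocyte-like in 8 of 8 pools (exact p = 0.0078), and microglia-like nuclei, absent from 2 pools and so not ranked, 68.5 CPM.

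Grin2a followed a different order among neurons. CA1-like neurons had 5584 ± 723 CPM, DG-like 4910 ± 332, the Hapln1/Egfr INH-like cluster 4649 ± 427 and CA2/3-like 3715 ± 244. The Hapln1/Egfr cluster stood above CA2/3-like neurons in 8 of 8 pools (log2 difference 0.32 ± 0.12, exact p = 0.0078, adjusted 0.0264), whereas the other INH-like clusters were at 2086 ± 261 (Lhx6) and 1715 ± 413 (Vip/Adarb2), so that the highest of the 8 Vip/Adarb2 values, 2288 CPM, lay below the lowest Hapln1/Egfr value, 4131. CA1-like and DG-like neurons did not differ past the threshold (0.18 ± 0.16, higher in 7 of 8 pools, exact p = 0.0312, adjusted 0.0767). Between OPC-like, astrocyte-like, Lhx6, deep-layer and Vip/Adarb2 nuclei no neighbouring step passed. Oligodendrocyte-like nuclei held 937 ± 322 CPM.

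Grin2b was also highest in CA1-like neurons, at 2834 ± 503 CPM against 2156 ± 205 in DG-like (log2 difference 0.38 ± 0.16, 8 of 8 pools, exact p = 0.0078, adjusted 0.0264). In contrast to Grin2a, the Vip/Adarb2 cluster stood near the top, at 2038 ± 158 CPM, and the Hapln1/Egfr cluster lowest among the neurons, at 1577 ± 194. The Lhx6 cluster exceeded the Hapln1/Egfr cluster in 7 of 8 pools (0.14 ± 0.12, exact p = 0.0156, adjusted 0.0422). Astrocyte-like nuclei held 1336 ± 288 CPM, OPC-like 1201 ± 339 and oligodendrocyte-like 584 ± 156.

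**Figure D1:**
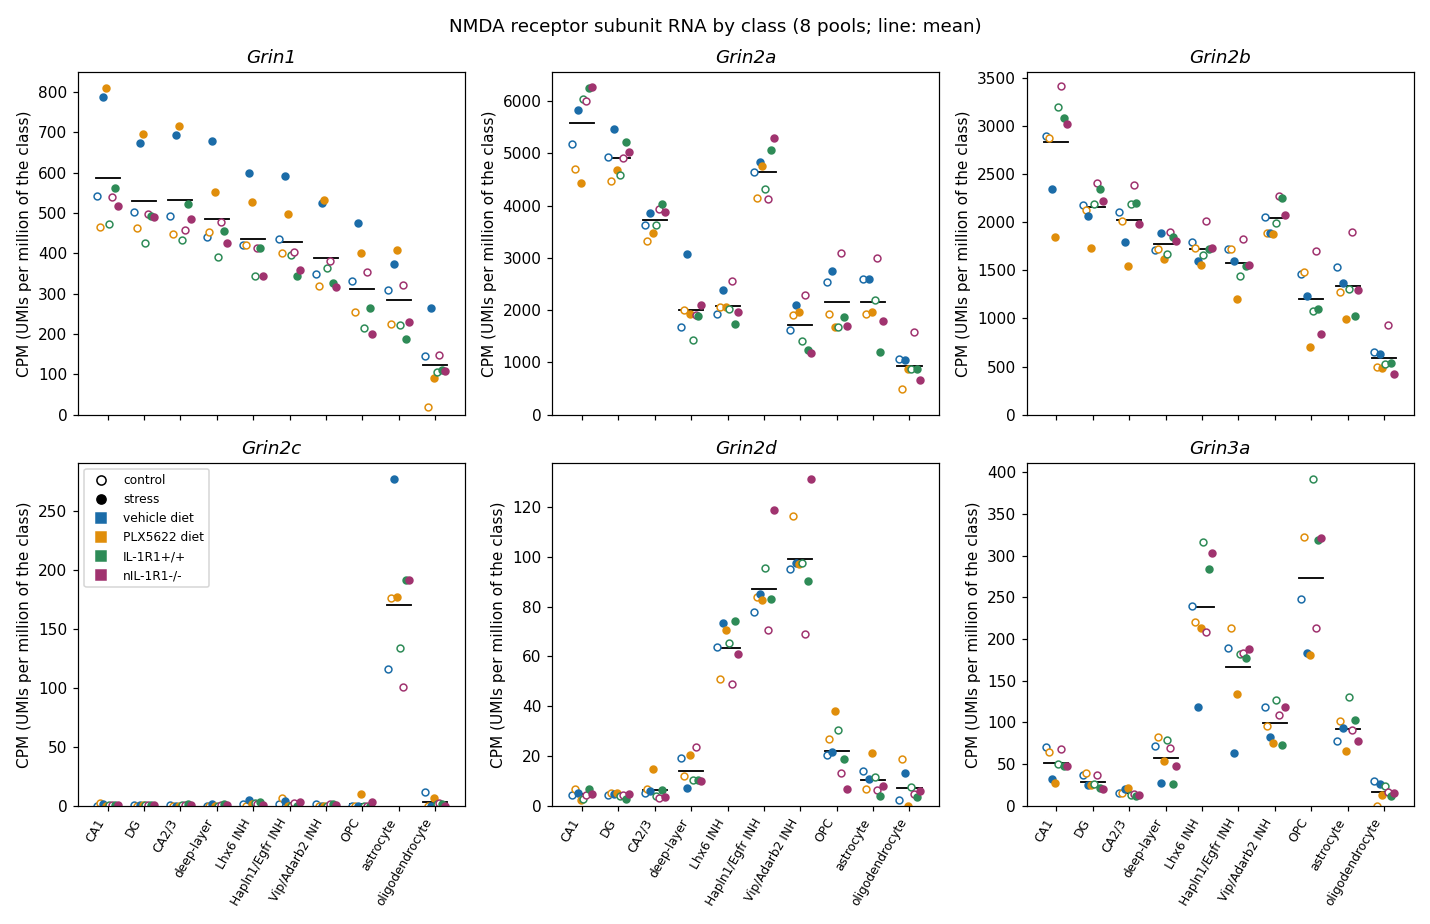
Level of each NMDA receptor subunit gene in CPM (UMIs per 1000000 UMIs of the class, linear axis) in 10 named classes, with 1 point for each of the 8 pools (open for control, filled for stress, colour for diet or genotype) and a line at their mean. Grin2c stands at 101 to 277 CPM in astrocyte-like nuclei and near 0 elsewhere, Grin2d is highest in the INH-like clusters, and Grin3a in OPC-like and Lhx6 INH-like nuclei.

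Grin2c RNA was found mainly in astrocyte-like nuclei. There it stood at 116 CPM in Control-Vehicle and 277 in Stress-Vehicle, and, control before stress, at 177 and 178 in the PLX5622 pair, 134 and 191 in the IL-1R1+/+ pair and 101 and 192 in the nIL-1R1-/- pair. None of the other 9 classes present in every pool had a mean above 2.88 CPM, and microglia-like nuclei gave 12.5 CPM on 4 UMIs in all pools together. Astrocyte-like nuclei exceeded the next of those classes, Lhx6 INH-like, by 5.99 ± 0.73 on the log2(CPM + 1) scale in 8 of 8 pools (exact p = 0.0078, adjusted 0.0264). A Grin2c UMI was present in 24.1% of astrocyte-like nuclei (median 995 UMIs). The share was 10.4% once nuclei were thinned to 500 UMIs, with those of fewer UMIs left out here and in all thinning below. Microglia-like nuclei, deeper at a median of 1740.5 UMIs, gave 1.81% and 0.602%. OPC-like nuclei had 0 Grin2c UMIs in 6 of the 8 pools, which in the deepest of these allows up to 2.67 CPM and in the shallowest up to 40.3 (3 counts of the class total, counting error only).

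Grin2d, whose subunit forms slowly closing channels, was concentrated in INH-like nuclei. The Vip/Adarb2 cluster held 99.3 ± 18.3 CPM, the Hapln1/Egfr cluster 87.3 ± 14.6 and the Lhx6 cluster 63.6 ± 9.6. Both steps passed (0.18 ± 0.15 in 7 of 8 pools, exact p = 0.0156, adjusted 0.0422, and 0.45 ± 0.28 in 8 of 8 pools, exact p = 0.0078, adjusted 0.0264), although at Leiden resolution 0.5 the Hapln1/Egfr cluster had the highest mean. The fall from Lhx6 to OPC-like nuclei, at 22.0 ± 9.86 CPM, was 1.61 ± 0.70 in 8 of 8 pools (exact p = 0.0078, adjusted 0.0264). DG-like, CA1-like and CA2/3-like neurons were at 4.32, 4.54 and 6.15 CPM, on 105 to 129 UMIs in all pools together, against 9.34 CPM on 3 UMIs in microglia-like nuclei.

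Grin3a was highest in glial precursors. OPC-like nuclei held 273 ± 77.3 CPM, and Lhx6 INH-like nuclei 238 ± 64.1, a step that did not pass (0.20 ± 0.29, higher in 7 of 8 pools, exact p = 0.0938, adjusted 0.18). Below them the Hapln1/Egfr cluster was at 167 ± 47.0 CPM and the Vip/Adarb2 cluster at 99.7 ± 21.1. Among the principal neurons the order was CA1-like (51.0 ± 16.1), DG-like (28.8 ± 7.68) and CA2/3-like (15.1 ± 3.41), with each step in the same direction in 8 of 8 pools (0.78 ± 0.37 and 0.87 ± 0.45, exact p = 0.0078, adjusted 0.0264 for each). At 500 UMIs per nucleus 18.2% of OPC-like nuclei had a Grin3a UMI, against 1.06% of oligodendrocyte-like and 0 of 166 microglia-like nuclei, which at that depth allows a share of up to 1.81%. Without thinning these shares were 43.6%, 2.25% and 2.41%, at median depths of 1497, 891.5 and 1740.5 UMIs.

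Grin2a and Grin2b UMIs were found in every class, including microglia-like nuclei, which hold 464 and 308 CPM of the pair. At 500 UMIs per nucleus 87.9% of DG-like, 90.3% of CA1-like, 54.4% of INH-like, 39.1% of astrocyte-like, 38.6% of OPC-like, 26.2% of oligodendrocyte-like and 18.7% of microglia-like nuclei had a Grin2a UMI. The unthinned shares were 94.7, 92.8, 81.7, 50.6, 60.1, 40.0 and 50.6% in the same order. The shares in glia stand beside that of microglia-like nuclei, and how much of either is RNA from other cells was not tested.

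To compare levels between genes, CPM was divided by the length of the gene in kb, introns included, and expressed as each member's share of the 6. Whether UMIs rise in proportion to that length was not tested, and the shares depend on it. On that scale Grin1 gave 51.2% of subunit RNA in CA1-like, 53.2% in DG-like and 58.2% in CA2/3-like neurons (means of 8 pools). Grin2a came next in DG-like neurons at 32.6 ± 2.44% (SD) and Grin2b at 13.4 ± 2.14%. In astrocyte-like nuclei Grin2c took 33 ± 9.05%, more than Grin2a and Grin2b together in the mean (18.0 and 10.5%). This did not hold in every pool, and in Con-nIL-1R1-/- the shares were 19.0% for Grin2c, 24.4% for Grin2a and 14.4% for Grin2b. Before division by length Grin2c was far below both, with 101 UMIs in Control-Vehicle against 2261 of Grin2a and 1335 of Grin2b. The non-2a, non-2b share was also visible in the INH-like clusters, where Grin2d gave 8.73 ± 2.29% in Vip/Adarb2, 5.81 ± 1.07% in Hapln1/Egfr and 5.11 ± 0.80% in Lhx6 nuclei, and in OPC-like nuclei, where Grin3a gave 7.70 ± 3.50%.

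**Figure D2:**
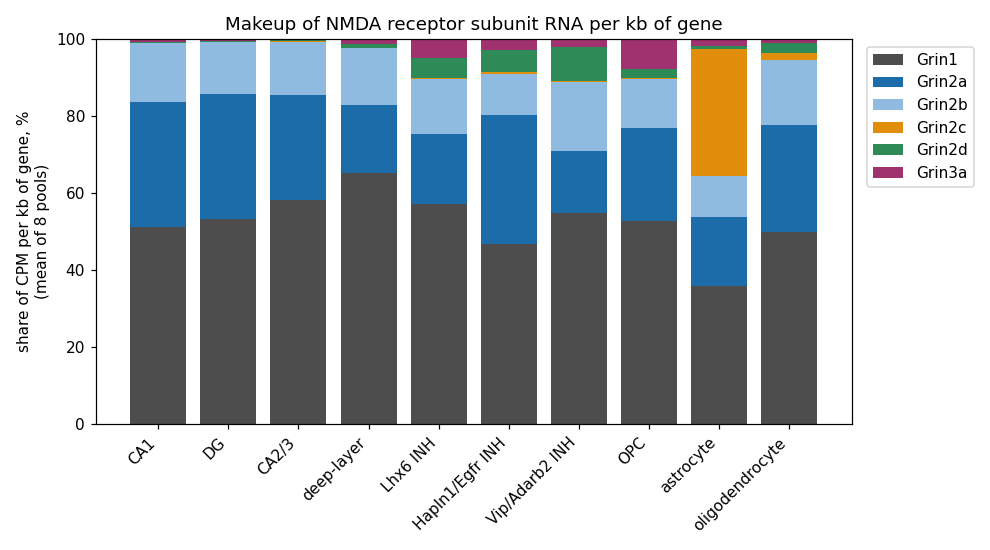
Stacked bars of the share (%) of each subunit gene in the summed CPM per kb of gene of the 6 members, as the mean of 8 pools, for 10 named classes. In these means, though not in every pool, Grin1 is the largest part in every class. Grin2c takes 33% in astrocyte-like nuclei, and Grin2d and Grin3a are visible in INH-like and OPC-like bars.

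The Grin2a share, the percentage of Grin2a UMIs in the sum of Grin2a and Grin2b UMIs, summarizes the balance between the main GluN2 genes. It averaged 69.5 ± 2.21% in DG-like neurons (SD, n = 8 pools), 66.4 ± 3.27% in CA1-like, 64.8 ± 2.78% in CA2/3-like, 64.3 ± 4.46% in OPC-like, 61.4 ± 4.07% in astrocyte-like and 56.2 ± 2.99% in INH-like nuclei. Within the INH-like nuclei it ran from 74.6 ± 3.49% in the Hapln1/Egfr cluster through 54.6 ± 3.06% in Lhx6 to 45.2 ± 6.87% in Vip/Adarb2 nuclei, without overlap between the Hapln1/Egfr pools (69.3 to 79.9%) and the Vip/Adarb2 pools (35.6 to 52.6%). Grin2a and Grin2b differ little in length, and per kb of gene the mean shares moved by under 2 points, to 71.0% in DG-like and 47.0% in Vip/Adarb2 nuclei.

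With RSD the Grin2a share was higher in 4 of 4 pairs of DG-like, CA1-like, CA2/3-like and OPC-like nuclei. In CA1-like neurons it was 64.2% in Control-Vehicle and 71.3% in Stress-Vehicle, 62.0% in Control-PLX5622 and 70.5% in Stress-PLX5622, 65.4 and 67.0% in the IL-1R1+/+ pair, and 63.7 and 67.5% in the nIL-1R1-/- pair. Every stress pool was above every control pool. The difference averaged 5.24 ± 3.16 points (SD, n = 4 pairs), with 7.10 and 8.54 points in the diet experiment and 1.59 and 3.72 in the genotype experiment.

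In CA2/3-like neurons the control pools lay between 62.2 and 63.3% and the stress pools between 64.7 and 69.2%, again without overlap, and the difference was 4.51 ± 1.93 points. The clusters that make up this class were mixed differently with stress. A cluster led by Col6a1 held 200 of 948 CA2/3-like nuclei in Control-Vehicle and 36 of 578 in Stress-Vehicle. It held 29 of 316 and 11 of 302 in the PLX5622 pair, 75 of 561 and 53 of 501 in the IL-1R1+/+ pair, and 139 of 707 and 37 of 393 in the nIL-1R1-/- pair. The part of this mix in the share difference was not tested. In DG-like neurons the controls ran from 67.1 to 69.3% and the stress pools from 69.0 to 73.0%. These ranges overlapped, and the difference was 3.01 ± 1.66 points. In OPC-like nuclei the controls ran from 56.7 to 64.5% and the stress pools from 63.0 to 70.4%, with a difference of 5.997 ± 5.35 points. By pair it was 5.53 (vehicle), 13.71 (PLX5622), 2.24 (IL-1R1+/+) and 2.51 points (nIL-1R1-/-). The largest came from pools of only 86 and 91 OPC-like nuclei. For each of these 4 classes the exact permutation test that flips the sign of the 4 pairs gave the smallest p that 16 flips allow, 2 of 16 (two-sided, 0.1875 after adjustment over 6 classes), so the design could not reach 0.05.

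INH-like and astrocyte-like nuclei did not share this pattern in all pairs. The INH-like share was higher with RSD by 5.70 and 1.53 points in the vehicle and PLX5622 pairs and lower by 4.32 and 4.07 points in the IL-1R1+/+ and nIL-1R1-/- pairs (mean -0.29 ± 4.82, exact p = 1.0). Astrocyte-like nuclei gave 2.58 and 6.13 points higher in the diet experiment and 8.97 and 3.07 points lower in the genotype experiment (mean -0.83 ± 6.62, exact p = 0.75). Within INH-like nuclei the Hapln1/Egfr cluster had a higher share with RSD in 4 of 4 pairs (5.24 ± 3.89 points), while the Vip/Adarb2 cluster ranged from 8.68 points higher in the vehicle pair to 13.95 points lower in the nIL-1R1-/- pair. Whether these classes differ from DG-like or CA1-like neurons in their response was not tested.

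Depth differed between stress and control pools, though not in the same direction in every class and pair. Median UMIs of CA1-like nuclei, control before stress, were 2565 and 1015 in the vehicle pair, 584 and 561.5 in the PLX5622 pair, 3539 and 3067 in the IL-1R1+/+ pair and 4689.5 and 2941 in the nIL-1R1-/- pair, lower with stress in 4 of 4. In DG-like nuclei they were 1986 and 1119, 566 and 581, 2373 and 2495, and 3375 and 1877. The share differences of DG-like nuclei, with pairs in the same order, were 3.26, 5.21, 1.36 and 2.23 points. The part of depth in them was not tested. Thinning to 500 UMIs left out nuclei with fewer, and so kept unlike parts of the pools. It kept 549 of 983 DG-like nuclei in Control-PLX5622 and 879 of 1472 in Stress-PLX5622, against 1411 of 1411 in Con-nIL-1R1-/-. The UMIs kept were drawn at random, which leaves the expected ratio of Grin2a to Grin2b within a nucleus unchanged. Thinning therefore reweights nuclei and cannot show the part of depth in the share. With the kept nuclei thinned to 500 UMIs the differences were 3.35 points in DG-like, 5.29 in CA1-like, 4.95 in CA2/3-like and 7.66 in OPC-like nuclei. At this depth DG-like nuclei with a Grin2a UMI and no Grin2b UMI made up 28.6% of nuclei in Control-Vehicle and 34.6% in Stress-Vehicle, 29.1 and 38.2% in the PLX5622 pair, 29.7 and 31.0% in the IL-1R1+/+ pair and 25.4 and 29.0% in the nIL-1R1-/- pair. DG-like stress pools were thus higher within each pair. In CA2/3-like nuclei this percentage was 28.3% in control and 27.3% in stress of the IL-1R1+/+ pair, and higher with stress in the other pairs. INH-like nuclei were lower with stress in both genotype pairs. In CA1-like and DG-like classes the shallower of their clusters made up more of Control-PLX5622, Stress-Vehicle and Stress-PLX5622 (76.3, 76.4 and 92.9% of CA1-like nuclei, against 6.8 to 28.8% in the other pools). With only the deeper cluster the CA1-like difference was 5.04 points. The shallower CA1-like cluster was led by Gm36264, Bc1 and Cpne7. At Leiden resolution 0.5 a cluster of 6526 nuclei led by Gm36264 and Bc1 stayed unnamed, with close CA2/3 and CA1 scores (0.36 and 0.31). The name of these shallower nuclei may therefore depend on the resolution.

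**Figure D3:**
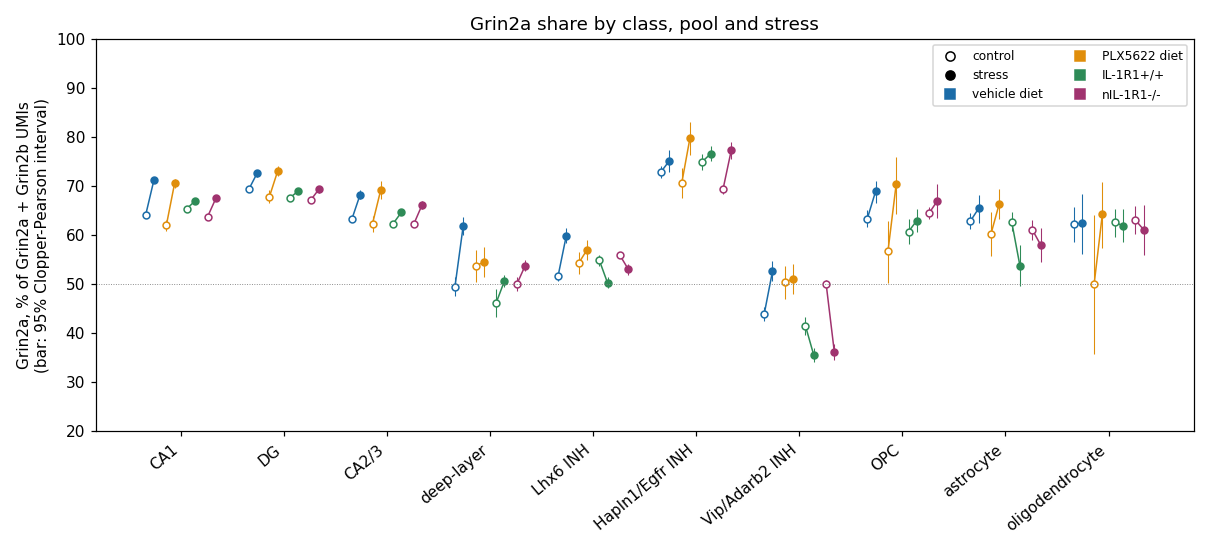
Grin2a UMIs as a percentage of Grin2a plus Grin2b UMIs (axis from 20 to 100%) in 10 named classes, with control (open) and stress (filled) pools of each pair joined by a line and bars for the 95% Clopper-Pearson interval, which covers counting error only. The lines rise in 4 of 4 pairs in CA1, DG, CA2/3, deep-layer, Hapln1/Egfr INH and OPC, and run in both directions in Lhx6 INH, Vip/Adarb2 INH, astrocyte and oligodendrocyte.

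Expression of the single members was then compared between stress and control over the 4 pairs with edgeR's quasi-likelihood test on summed UMIs, fitted on all genes of a class with pair as a term. A stress difference present in only some diets or genotypes lowers the fitted mean and widens its error in this design. In each of the 6 classes tested 5 members passed the filter on low counts: Grin2c passed in astrocyte-like nuclei alone, and Grin2d in all the others. None of the 30 member and class combinations passed an adjusted p of 0.05, against a background of 0.0682% of 11737 genes called in DG-like, 0.0176% of 11352 in CA1-like, 0.448% of 11829 in CA2/3-like, 0.00771% of 12969 in INH-like, 0.636% of 5659 in astrocyte-like and 0.225% of 7125 in OPC-like nuclei. At an unadjusted edgeR p under 0.05 there were 10 of 30: 2 of 5 in DG-like (all genes 1409 of 11737), 3 of 5 in CA1-like (1885 of 11352), 1 of 5 in CA2/3-like (1848 of 11829), 0 of 5 in INH-like (1120 of 12969), 3 of 5 in astrocyte-like (651 of 5659) and 1 of 5 in OPC-like nuclei (459 of 7125). DESeq2 with the same design called 0 and gave no adjusted p for 9 of the 30. The median SE of the 30 differences was 0.158 on the log2 scale, and in simulated DG-like counts the test recovered 79 of 100 genes changed by log2 1.0 and 20 of 100 changed by log2 0.5. At log2 0.5 it recovered 15 of 100 in CA1-like, 25 in CA2/3-like, 25 in INH-like, 8 in astrocyte-like and 7 in OPC-like counts. The simulated counts had 1 mean per gene for all pairs and the same stress fold in every pair. These numbers therefore do not cover stress differences that vary between pairs.

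The largest differences of the fit in neurons were in Grin3a. In CA1-like neurons Grin3a was at 70.0, 64.3, 50.6 and 68.6 CPM in the control pools of the vehicle, PLX5622, IL-1R1+/+ and nIL-1R1-/- pairs and at 32.1, 26.8, 48.2 and 47.9 CPM in the matching stress pools. Every stress value was below every control value, with a log2 fold change of -0.70 ± 0.18 (SE) and an edgeR adjusted p of 0.10. In DG-like neurons the controls were at 36.7, 39.6, 26.3 and 36.7 CPM and the stress pools at 24.9, 24.6, 21.5 and 19.999, also without overlap (-0.61 ± 0.16, edgeR adjusted p = 0.12). There the counting intervals included 0 in the PLX5622 pair (31 control and 29 stress UMIs, -1.47 to 0.09) and in the IL-1R1+/+ pair (-0.75 to 0.17). How many of all genes separate stress from control pools in this way is not given here. The mean log2 ratio in CA1-like neurons was -1.19 over the diet pairs and -0.29 over the genotype pairs, and in DG-like neurons -0.63 and -0.58. In CA2/3-like neurons, where Grin3a was lowest, the fold change was 0.06 ± 0.20, and in OPC-like nuclei, where it was highest, -0.17 ± 0.20.

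Grin1 differed most in the diet experiment, although no class passed the test. In CA1-like neurons it stood at 543 CPM in Control-Vehicle and 787 in Stress-Vehicle, 464 and 811 in the PLX5622 pair, 473 and 563 in the IL-1R1+/+ pair and 541 and 518 in the nIL-1R1-/- pair. The fitted log2 fold changes were 0.35 ± 0.15 in CA1-like, 0.34 ± 0.12 in CA2/3-like and 0.27 ± 0.11 in DG-like neurons (edgeR adjusted p = 0.24, 0.16 and 0.34). Over the diet and genotype pairs the mean log2 ratios were 0.67 and 0.09 in CA1-like, 0.58 and 0.18 in CA2/3-like and 0.51 and 0.10 in DG-like neurons. In INH-like nuclei they were 0.47 and -0.08, and in astrocyte-like nuclei 0.57 and -0.36. The genotype means join unlike pairs. In IL-1R1+/+ and nIL-1R1-/- the log2 ratios were 0.25 and -0.06 in CA1-like, 0.27 and 0.08 in CA2/3-like and 0.21 and -0.02 in DG-like neurons. They were 0.09 and -0.26 in INH-like and -0.24 and -0.47 in astrocyte-like nuclei. The difference between the genotypes was not tested. The difference between the experiments, which differ in mouse line and in diet, was not tested.

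Of the genes that make up the Grin2a share, Grin2b differed more than Grin2a in CA1-like neurons. It was at 2890 and 2349 CPM in Control-Vehicle and Stress-Vehicle, 2878 and 1849 in the PLX5622 pair, 3193 and 3080 in the IL-1R1+/+ pair and 3411 and 3022 in the nIL-1R1-/- pair, lower with stress in 4 of 4 pairs (-0.32 ± 0.15, edgeR adjusted p = 0.28). Grin2a in the same nuclei gave 0.02 ± 0.14 (edgeR adjusted p = 0.96). In CA2/3-like neurons the values were -0.24 ± 0.12 for Grin2b and 0.04 ± 0.11 for Grin2a, and in OPC-like nuclei -0.56 ± 0.19 and -0.22 ± 0.19. In DG-like neurons both were small, -0.12 ± 0.12 for Grin2b and 0.08 ± 0.12 for Grin2a. In these 3 classes the edgeR adjusted p ran from 0.32 to 0.94.

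In astrocyte-like nuclei Grin2c was the member with the largest fold change. Its control pools lay between 101 and 177 CPM and its stress pools between 178 and 277, without overlap but on 26 to 101 UMIs per pool (log2 fold change 0.70 ± 0.20, edgeR adjusted p = 0.11). The number of all genes without such overlap is not given here. For Grin2c the ranges nearly touched. The highest Grin2c value was that of Stress-Vehicle, and the PLX5622 pair differed by less than 1 CPM (177 and 178). Without the PLX5622 pair the fold change was 0.88 with an edgeR adjusted p of 0.0316, without the vehicle pair it was 0.47 (0.56), and with nuclei thinned to 500 UMIs 0.19 (0.92). Grin2a and Grin2b had fold changes of -0.43 ± 0.17 and -0.39 ± 0.15 in these nuclei (edgeR adjusted p = 0.27 and 0.28), and with nuclei thinned to 500 UMIs Grin2b turned to 0.076.

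**Figure D4:**
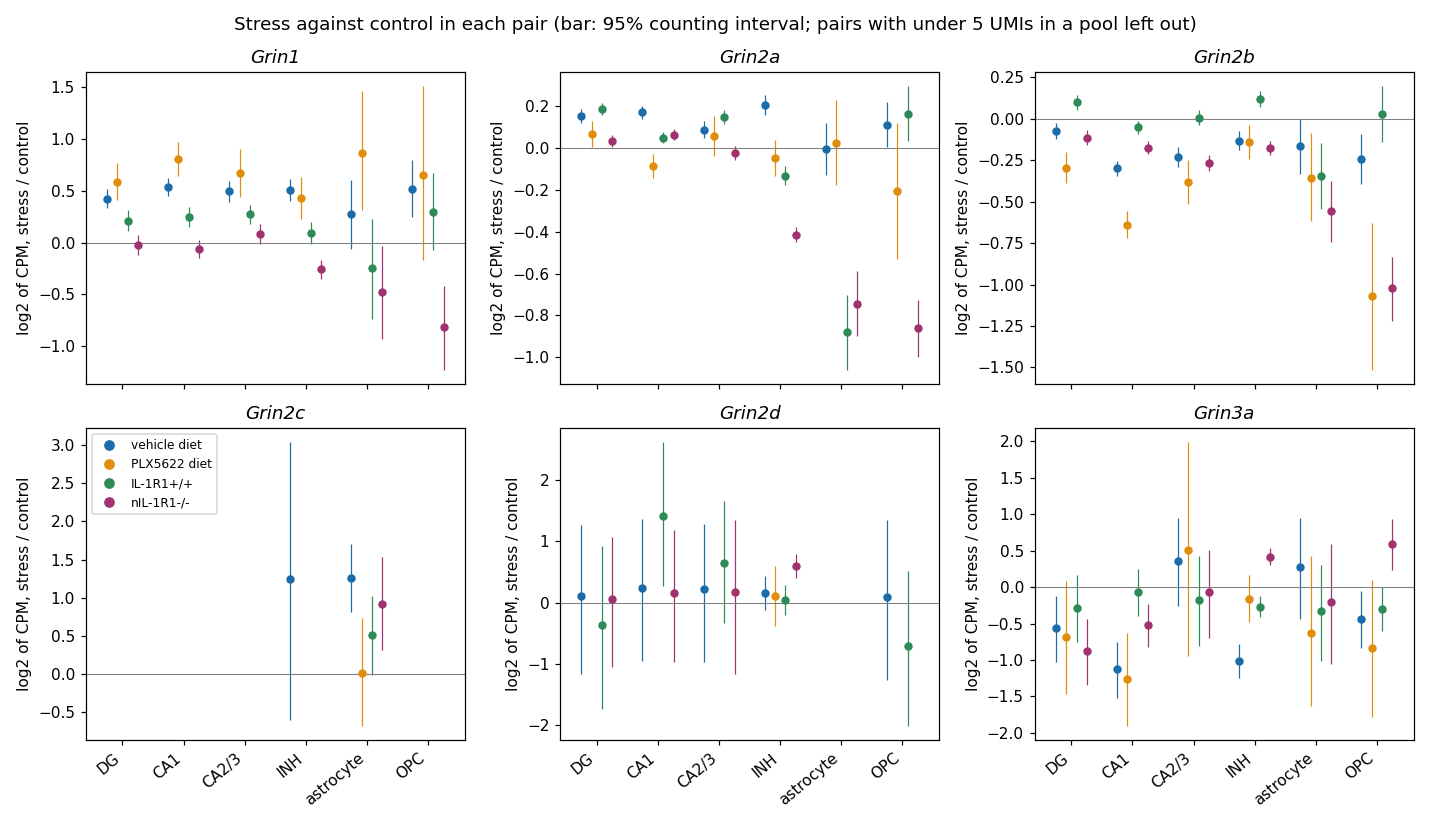
Log2 ratio of CPM in the stress pool to CPM in the control pool for each subunit gene, by class and pair (colour), with bars for the 95% interval of the counting error. Pairs with fewer than 5 UMIs in a pool are left out, and Grin3a in CA1 and DG lies below 0 in 4 of 4 pairs.

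Gene length moved with the fitted RSD difference over all genes, and the members fall at both ends of the length range. The median log2 fold change over genes of up to 50 kb was 0.08 in CA1-like, 0.07 in CA2/3-like and 0.05 in DG-like neurons, and over genes longer than 150 kb it was -0.12, -0.13 and -0.07. Grin2b and Grin3a, both longer than 150 kb, stood further from 0 than these medians in CA1-like neurons, and Grin2a, of nearly the same length as Grin2b, stood above them. The part of gene length in the members' differences was not tested.

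**Figure D5:**
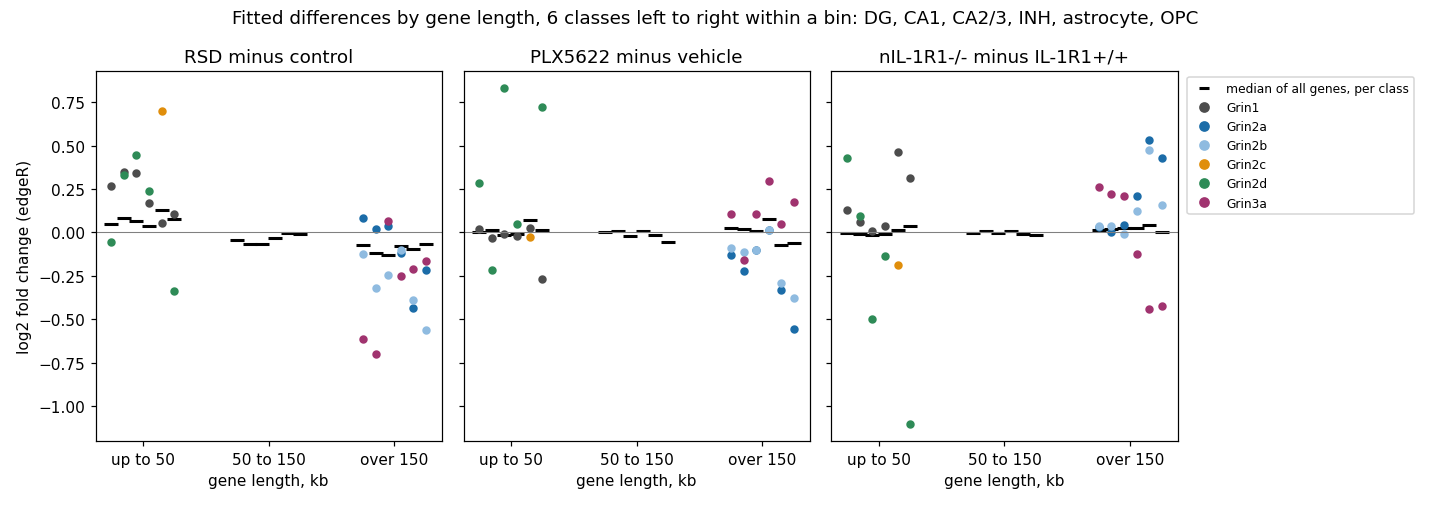
Fitted log2 fold change of each subunit gene (points) and the median over all genes of the class (bars) by gene length, for RSD, PLX5622 and nIL-1R1-/- contrasts, with the classes DG, CA1, CA2/3, INH, astrocyte and OPC from left to right in each bin. For RSD the medians lie above 0 for genes up to 50 kb and below 0 for genes over 150 kb, as do Grin1 and, with the exception of CA2/3, Grin3a. Grin2b also lies below 0. Grin2a, over 150 kb, lies above 0 in DG, CA1 and CA2/3 and below 0 in the other classes. Grin2d, up to 50 kb, lies below 0 in DG and OPC and above 0 in CA1, CA2/3 and INH.

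The diet comparison asked whether PLX5622 itself went with a change in the subunits. No member passed (0 of 30 by edgeR and 0 by DESeq2, 1 of 30 at an unadjusted edgeR p under 0.05, where all genes gave 278 to 865 per class, lowest edgeR adjusted p = 0.93). The background was 0.0682% of genes called in DG-like, 0.00881% in CA1-like, 0.0169% in CA2/3-like, 0.0% in INH-like, 0.194% in astrocyte-like and 0.0281% in OPC-like nuclei. In DG-like and CA1-like neurons Grin1, Grin2a, Grin2b and Grin3a had fold changes from -0.22 to 0.11, with SEs of 0.16 to 0.28. The lowest unadjusted p was that of Grin2a in OPC-like nuclei, at -0.56 ± 0.27, where Control-PLX5622 and Stress-PLX5622 held 1935 and 1677 CPM against 2537 and 2743 in the vehicle pools, and thinning to 500 UMIs turned the fold change to 0.15. In that class 1 of 5 members and 368 of 7125 genes had an unadjusted edgeR p under 0.05. The Grin2a share differed between diets by -1.5 points in control and 0.45 in stress pools of DG-like neurons, by -2.16 and -0.73 in CA1-like and by -0.94 and 0.96 in CA2/3-like neurons, each from 1 pool a group and so without a test.

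The genotype comparison asked the same of the loss of IL-1R1 in Vglut2-lineage neurons. No member passed (0 of 30 by edgeR and 0 by DESeq2, 2 of 30 at an unadjusted edgeR p under 0.05, where all genes gave 151 to 395 per class, lowest edgeR adjusted p = 0.77), while Il1r1 was the only gene called in DG-like neurons. The background was 0.00852% of genes in DG-like, 0.0% in CA1-like, 0.0% in CA2/3-like, 0.0% in INH-like, 0.053% in astrocyte-like and 0.0281% in OPC-like nuclei. In DG-like neurons the fold changes were 0.13 ± 0.16 for Grin1, 0.03 ± 0.17 for Grin2a, 0.04 ± 0.17 for Grin2b and 0.26 ± 0.20 for Grin3a. The members with an unadjusted p under 0.05 were Grin2a and Grin2b in astrocyte-like nuclei, at 0.53 ± 0.23 and 0.47 ± 0.21. In that class 2 of 5 members and 354 of 5659 genes were under this threshold. There Grin2a was at 2196 (control) and 1194 CPM (stress) in the IL-1R1+/+ pair and at 2992 and 1787 in the nIL-1R1-/- pair, and thinning to 500 UMIs brought the fold change of Grin2a to -0.00024. The Grin2a share differed between genotypes by -0.51 points in control and 0.36 in stress pools of DG-like neurons, -1.66 and 0.47 in CA1-like and -0.10 and 1.46 in CA2/3-like neurons.

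The RSD differences of the 2 genotypes were set side by side without a test. The Grin2a share differed by 1.59 points in IL-1R1+/+ and 3.72 points in nIL-1R1-/- CA1-like neurons, 1.36 and 2.23 in DG-like and 2.31 and 3.87 in CA2/3-like neurons. In INH-like nuclei the stress pools of both genotypes were lower than their controls, by 4.32 and 4.07 points. Medium-spiny-like nuclei, which do not belong to the hippocampus, made up 4.57% of Stress-IL-1R1+/+ and at most 0.199% of the other pools. They form a class of their own and are not in the sums behind these values. Unnamed clusters, also outside the sums, were uneven too. The cluster led by Zfhx3 and Otx2os1 drew 1516 of its 1910 nuclei from the IL-1R1+/+ control pool. Each other pool gave it 23 to 133. The cluster led by Igfn1 and Pdzrn3 held 46 nuclei of that control pool, 539 of its stress partner and 116 to 698 of each remaining pool. The region of origin of these unnamed clusters was not tested. Whether those sums hold other nuclei from outside the hippocampus was not tested.

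The pathway around the receptor was described with 50 genes: the subunit Grin3b, postsynaptic scaffolds, kinases and phosphatases, calmodulin-dependent and Ras signalling, and the supply and clearance of the co-agonist. Between 40 (astrocyte-like) and 47 (INH-like) of them passed the filter. With RSD no pathway gene was called by edgeR in DG-like, CA1-like, INH-like, astrocyte-like or OPC-like nuclei.

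At an unadjusted edgeR p under 0.05, 8 pathway genes were higher and 8 lower with RSD in CA1-like neurons, 10 and 6 in CA2/3-like, 6 and 5 in DG-like and 3 and 2 in INH-like nuclei. Astrocyte-like nuclei had 0 higher and 8 lower, and OPC-like nuclei 1 and 0. These are 16 of 46 genes in CA1-like, 16 of 46 in CA2/3-like, 11 of 46 in DG-like, 5 of 47 in INH-like, 8 of 40 in astrocyte-like and 1 of 43 in OPC-like nuclei, to be set beside the counts over all genes at that threshold given above. The median log2 fold change of the list was 0.02 in CA1-like neurons, where the median over all genes tested was 0.01, and -0.19 in astrocyte-like nuclei, where that over all genes was 0.02. In CA1-like neurons the higher genes had a median length of 56.6 kb and the lower genes 240 kb. Neither the diet nor the genotype contrast called a pathway gene in any of the 6 classes by edgeR, with 0 to 3 genes per class at an unadjusted p under 0.05 except for 7 of 40 in astrocyte-like nuclei for genotype. Over all genes of that class and contrast it was 354 of 5659.

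Over the 10 named classes the genes most like each member were sought among 8176 genes with at least 20 CPM in a class, by Pearson's r of mean log2(CPM + 1). These values are descriptions of 10 class means from shared libraries. Grin1 was closest to Unc13a (0.99), a presynaptic vesicle priming factor, and to Sptbn4 and Actl6b. Grin2a was closest to Rasgrf1 (0.95), a calcium-responsive Ras exchange factor that also stood on the pathway list, then to Gcnt2 and Mthfd1. Grin2b was closest to Unc13a (0.98), Pld3 and Prkar1a. Grin2c was closest to Sparc, Slco1c1 and Gja1 (0.99 each), Gja1 encoding connexin 43 of astrocytes. Grin2d was closest to Vwc2 (0.96), Rbms3 and C130073E24Rik, and Grin3a to Csk (0.95), Ptpn4 and Fchsd2. Between members r was highest for Grin1 with Grin2b (0.96) and for Grin1 with Grin2a (0.80), and Grin2d with Grin3a gave 0.74.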

How the data were processed

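Nuclei were barcoded by split-pool single-nucleus RNA-seq (Parse Biosciences) and sequenced as 4 sublibraries, each holding nuclei of all 8 pools. The authors aligned reads to mm39 with the Parse pipeline (version and annotation release not given in the sources used here) and deposited UMI counts per nucleus and gene. Per the labels, Seurat 4.1.1 was used. No column was left unmapped, and gene positions and lengths came from GENCODE vM39 on GRCm39, which held 56017 of the 56748 gene IDs.

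Nuclei over 20% mitochondrial UMIs were left out. The rest were clustered with scanpy 1.11.5 (2000 variable genes, 30 components, 15 neighbours, Leiden resolution 1.0). Clusters were named from marker lists, and 2 naming thresholds (a score of at least 0.5 and at least 1 own marker among the 10 leading genes) were added after the cluster table was seen and before any member was compared. Scrublet's own calls did not work in most pools, so no doublets were removed and leaving out the highest 6% of scores is an alternative. UMIs were summed per pool and class, a class needing 20 nuclei in every pool. The sums were tested with edgeR 4.0.16 in R 4.3.3 (TMM, filterByExpr, quasi-likelihood, pair and stress as terms) with Benjamini-Hochberg adjustment over all genes and a threshold of 0.05, and with DESeq2 1.42.0. Shares and class differences were tested by exact sign flips, over 4 pairs (16 flips) and over 8 pools (256 flips). Intervals are 95% and cover counting error only. Each fit was tested on simulated data without differences between pairs. Of 100 genes changed by log2 1.0, the fit recovered 67 in CA1-like, 76 in CA2/3-like, 76 in INH-like, 50 in astrocyte-like and 48 in OPC-like counts.

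A pair is the control and stress pool of 1 diet or genotype, as the labels give them. Deviations of paired pools from their group means correlated at -0.02 to 0.42, in 22 of 24 class and pair combinations above 0, and above 0.1 for every pair in the 4 neuronal classes tested. The study's own tests used nuclei as replicates, whereas here pools of different diets and genotypes stand in as replicates. All members were named in every class, with pathway genes where called with the same sign in every pair, and per member the 3 genes of highest r. Members, gene lists and comparisons were chosen with earlier results of these data known. The call of the pathway list for RSD in CA2/3-like neurons is not reported here.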

Additional observations from a re-analysis of the deposited data

Results flagged for a closer look

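Dixon's gap criterion was applied to 70 groups of 4 pools, of which chance flags about 1 in 20, and it marked 2. Grin2c in astrocyte-like nuclei was at 277 CPM in Stress-Vehicle, apart from the other stress pools at 178 to 192. The Grin2a share in CA2/3-like neurons was 63.3% in Control-Vehicle, apart from the other control pools at 62.2 to 62.3%, a gap of about 1 point.

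In 3 flagged cases the stress difference ran in opposite directions in every pair of the diet and of the genotype experiment. The Grin2a share of INH-like nuclei differed by 3.62 points in the diet pairs and by -4.19 points in the genotype pairs. In astrocyte-like nuclei the same share differed by 4.36 and -6.02 points. Grin1 in astrocyte-like nuclei had mean log2 ratios of 0.57 and -0.36. Other values split in the same way without being flagged. They include Grin3a in CA2/3-like neurons (mean log2 ratios 0.44 and -0.12) and Grin2d in OPC-like nuclei (0.30 and -0.85). The Grin2a shares of the Lhx6 and Vip/Adarb2 clusters also did so. None of these differences between the experiments was tested.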

How the results depend on the processing

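The count of members called stayed at 0 under every alternative run for PLX5622 and for nIL-1R1-/-, and for RSD under all but 3 settings. For RSD, 1 member was called in CA1-like neurons with no filter on low counts (Grin3a, adjusted p = 0.0103) and, with pairs left out in turn, between 0 and 1, the call coming without the IL-1R1+/+ pair (Grin3a, 0.0277). In astrocyte-like nuclei leaving out pairs gave 0 to 1, the call coming without the PLX5622 pair (Grin2c, 0.0316). With nuclei thinned to 500 UMIs, Grin2b RSD in astrocyte-like nuclei became 0.076, Grin2a nIL-1R1-/- in astrocyte-like nuclei -0.00024 and Grin2a PLX5622 in OPC-like nuclei 0.15 on the log2 scale. The causes were not tested.

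The Grin2a share difference stayed positive under all alternatives in DG-like (2.28 to 3.56 points), CA1-like (4.14 to 6.46), CA2/3-like (3.72 to 5.25) and OPC-like nuclei (3.43 to 7.66). In INH-like nuclei it was 1.23 points when thinned, and -2.28 to 1.05 with a pair or a sublibrary left out (0.69 without sublibrary 4, 1.05 without the IL-1R1+/+ pair, 0.97 without the nIL-1R1-/- pair). In astrocyte-like nuclei it ran from -3.15 to 1.88 with a pair or sublibrary left out, 1.88 without the IL-1R1+/+ pair, and was -7.36 when thinned.

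Without the replicate block, so with stress alone in the fit, 0 members were called in each of the 6 classes and Grin3a in CA1-like neurons had an adjusted p of 0.395. Il1r1 in DG-like neurons lost its call when thinned (0.138), with a log2 fold change of -2.40 there and between -2.40 and -2.08 over all alternatives. With only the deeper cluster of each class, or with scaling by library size only, both chosen after seeing the data, 0 members were called.

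Of the called steps between neighbouring classes, 2 remained in number for Grin1, 2 for Grin2b and 3 for Grin3a at Leiden resolution 0.5 (4, 4 and 5 as reported), 1 for Grin1, 1 for Grin2d and 2 for Grin3a when thinned, and 2 for Grin1 and 2 for Grin3a without doublets. With a pool or a sublibrary left out the counts ran from 0 to 5 for Grin1, 0 to 4 for Grin2a, 0 to 4 for Grin2b, 0 to 1 for Grin2c, 0 to 3 for Grin2d and 0 to 5 for Grin3a. An exact test over 7 pools cannot go below p = 0.0156.

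Over all genes, the number called for RSD by edgeR as reported, by DESeq2 and over all alternatives was 8, 22 and 0 to 175 in DG-like, 2, 77 and 0 to 372 in CA1-like, 53, 156 and 1 to 289 in CA2/3-like, 1, 20 and 0 to 82 in INH-like, 36, 49 and 0 to 73 in astrocyte-like and 16, 1 and 0 to 26 in OPC-like nuclei. For PLX5622 it reached at most 50 and for nIL-1R1-/- at most 64.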
